A study of Mus musculus with 2 samples.

Results

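Cycling endothelial cells of mouse tumours were taken from 2 single-cell RNA libraries as the endothelial cells in which at least 4 UMIs (unique molecular identifiers, each standing for 1 captured transcript) came from Top2a, Mki67, Birc5, Ube2c and Cdk1 together. Of 21580 barcodes, 15853 passed the minimum of 500 genes and the maximum of 10% mitochondrial UMIs. Of these, 844 were endothelial by the rule that Cdh5, Egfl7, Esam, Emcn, Plvap and Cd93 together made up at least 20 per 10000 UMIs, with Krt8 and Krt18 at no more than 4 and Col1a1, Col1a2 and Col3a1 below 50 per 10000. The rule on the 5 cycle genes kept 84 cells, 27 of 542 endothelial cells in the WT library and 57 of 302 in the library of the Myct1 knockout. The remaining 515 and 245 endothelial cells, called the other endothelial cells here, were the comparison within each library.

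Both libraries came from tumours of C57BL/6 mice, and in each the tumours of 4 mice were pooled, digested with collagenase-II, dispase-II and deoxyribonuclease and captured as 1 Chromium 3′ droplet library. The WT group carried no allele or agent that the labels name. The knockout group was Cdh-cre Myct1 fl/fl (Cdh5-cre in the series title): Cre recombinase driven from the gene of the endothelial cadherin acts on a floxed Myct1 allele, so the deletion depends on cells in which that promoter is or was active. Neither the tumour model nor the age of the mice nor the floxed exon is stated in the labels. With 1 library per genotype, there is no replicate and so no test or p-value, mice could not be separated, and genotype and library cannot be told apart.

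Endothelial cells line blood vessels and rest outside the cell cycle in most adult tissues, while growing tumours draw in new vessels whose cells divide. A dividing cell first makes D and E cyclins, which release E2F transcription factors from retinoblastoma-family proteins, then loads MCM helicases on the DNA and copies it in S phase, and last builds the spindle and kinetochores that separate the chromosomes in mitosis. In sprouting vessels, tip cells that lead the sprout are described as rarely dividing, and the stalk cells behind them as the main dividing population; VEGF receptors, Notch ligands and the Ets family of transcription factors shape both states.

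The genes of the rule mark S phase to mitosis. Top2a untangles copied DNA, Mki67 coats mitotic chromosomes, Birc5 belongs to the chromosomal passenger complex, Ube2c hands ubiquitin to targets of the anaphase-promoting complex, and Cdk1 is the mitotic kinase. Because these genes chose the members, their values are a description. In the 27 WT members the 5 genes together had a median of 18 UMIs per cell (lowest 4, highest 68), and in the 57 knockout members 17 (4 to 101). In single cells, Top2a had a median of 5 UMIs in WT members (0 to 17) and 3 in knockout members (0 to 15). For Mki67 the median was 3 (0 to 10) in WT members and 1 (0 to 6) in knockout members. Birc5 had medians of 5 (0 to 12) and 6 (0 to 21), Ube2c of 2 (0 to 33) and 4 (0 to 42), and Cdk1 of 3 (0 to 11) and 4 (0 to 21). The ranges overlapped widely between the libraries for every one of the 5 genes. All 5 genes were detected in 15 of 27 WT and 32 of 57 knockout members, and in the other endothelial cells each gene had a UMI in 1.17% to 6.602% of the WT cells and 2.45% to 12.2% of those in the knockout library.

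**Figure D1:**
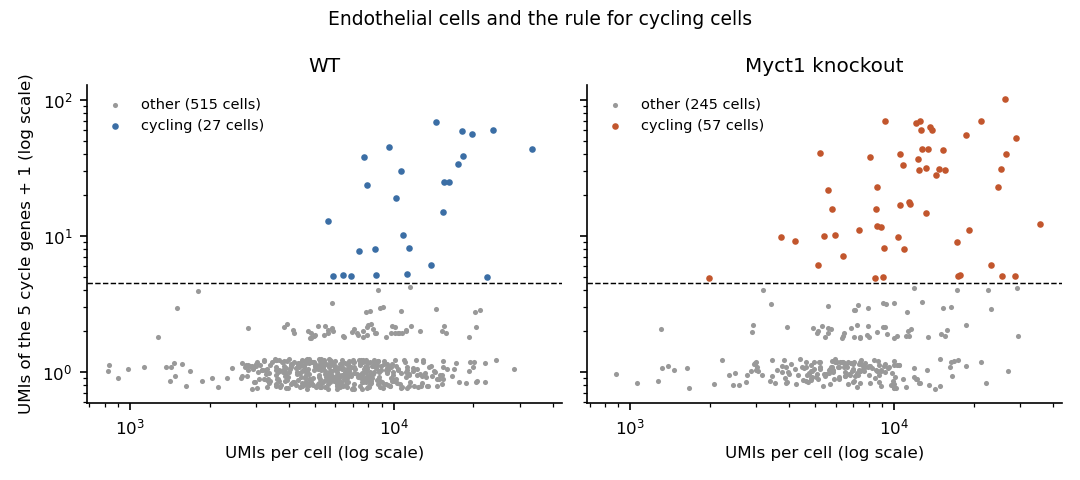
Total UMIs per cell (horizontal axis, log scale) against the summed UMIs of the 5 rule genes plus 1 (vertical axis, log scale, points spread slightly) in every endothelial cell of the WT (left) and knockout (right) library; each point is 1 cell and the dashed line is the cutoff. The 27 WT and 57 knockout members (coloured) rise from the line to 68 and 101 UMIs, and most of the 515 and 245 other cells (grey) lie at 0.

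The plot of rule gene UMIs shows members spread from the cutoff upwards, mostly among the deeper cells. Just inside the threshold, with 4 UMIs, were 6 WT and 7 knockout cells, whose median totals were 7708 and 17412 UMIs. Just outside it, with 3 UMIs, were 3 WT cells and 5 knockout cells, with median totals of 8734 and 17328. No rule gene UMI was found in 451 WT and 187 knockout endothelial cells.

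Promoters of 4 of the 5 rule genes are shown for the cycle motifs they hold; the same window of Birc5 (chr11:117849107-117849286, plus strand) held none of the motifs searched and is not printed. The stretches printed here run from 130 bases before to 50 bases after the annotated transcript start of Top2a (chr11:99024140-99024319, minus strand), Mki67 (chr7:135716330-135716509, minus), Ube2c (chr2:164769799-164769978, plus), Cdk1 (chr10:69352863-69353042, minus) and the replication checkpoint gene Clspn (chr4:126556850-126557029, plus). Each spans the start of the gene's first exon, and Clspn was chosen after its matches were seen, as the S phase gene with an E2F match and the highest ratio bound. Sequences are from RefSeq on GRCm38.p6, the assembly of which mm10 is the browser name, written 5′ to 3′ in the gene's own direction, and capitals mark the motif matches described after them.
Top2a: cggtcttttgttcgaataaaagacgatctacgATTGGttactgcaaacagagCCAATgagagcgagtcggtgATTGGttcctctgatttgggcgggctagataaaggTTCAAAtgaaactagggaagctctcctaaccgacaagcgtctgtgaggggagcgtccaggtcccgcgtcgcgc
Mki67: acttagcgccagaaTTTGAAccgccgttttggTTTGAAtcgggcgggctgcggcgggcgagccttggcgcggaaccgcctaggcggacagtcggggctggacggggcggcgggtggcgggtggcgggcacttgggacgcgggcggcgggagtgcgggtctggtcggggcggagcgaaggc
Ube2c: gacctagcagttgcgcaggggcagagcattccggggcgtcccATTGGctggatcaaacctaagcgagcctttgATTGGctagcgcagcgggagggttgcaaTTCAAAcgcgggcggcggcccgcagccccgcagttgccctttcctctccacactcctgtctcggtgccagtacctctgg
Cdk1: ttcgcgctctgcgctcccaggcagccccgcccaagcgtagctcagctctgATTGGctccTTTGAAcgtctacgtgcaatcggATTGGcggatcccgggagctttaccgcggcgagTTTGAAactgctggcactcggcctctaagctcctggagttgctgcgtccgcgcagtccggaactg
Clspn: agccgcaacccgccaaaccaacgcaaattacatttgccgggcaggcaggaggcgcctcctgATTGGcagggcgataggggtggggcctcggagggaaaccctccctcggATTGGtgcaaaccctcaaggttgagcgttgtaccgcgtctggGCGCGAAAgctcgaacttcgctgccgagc

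The search covered 3 motifs on both strands, so a capital run can be the reverse complement of the letters given here. The cell cycle homology region bound by the DREAM and MuvB complexes was searched as TTTGAA or TTTAAA, the NF-Y box as CCAAT, and the E2F site as TTTGGCGC, TTTCGCGC, TTTCCCGC or TTTGCCGC; no motif's letters contain those of another. Top2a showed 1 cell cycle homology match and 3 NF-Y boxes in its stretch, Mki67 2 matches of the first kind and no NF-Y box, Ube2c 1 and 2, and Cdk1 2 and 2. In Clspn there were 1 E2F match and 2 NF-Y boxes. Among RefSeq promoters of 300 bases (250 before to 50 after the start), the cell cycle homology letters were in 27.6% of all 32851, in 28.1% of the 57 that belong to genes of S phase lists and in 64.0% of the 89 that belong to genes of G2 and mitosis lists. For NF-Y the shares were 37.4%, 52.6% and 70.8%, and for E2F 2.26%, 33.3% and 8.99%. Among the 8849 promoters of genes listed for both libraries, the cell cycle homology letters were in 19.5%, the NF-Y box in 37.2% and the E2F site in 3.84%. Of the list promoters of such genes, 25.9% for S phase and 65.9% for G2 and mitosis held the cell cycle homology letters. The lists matched a promoter for 47 of 57 S phase genes and 81 of 96 G2 and mitosis genes. All 5 rule genes, Birc5 among them, held the cell cycle homology letters in their promoters of 300 bases. A match is a string of letters, and binding was not measured.

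For comparison, these are the 300-base promoters of the S phase genes Rrm2 (chr12:24708004-24708303, plus) and Tk1 (chr11:117825965-117826264, minus) and of the mitotic genes Nusap1 (chr2:119618048-119618347, plus) and Cep55 (chr19:38054734-38055033, plus), the pair of each group whose ratio of cycling to other endothelial cells had the highest lower bound over both libraries. Capitals again mark the matches.
Rrm2: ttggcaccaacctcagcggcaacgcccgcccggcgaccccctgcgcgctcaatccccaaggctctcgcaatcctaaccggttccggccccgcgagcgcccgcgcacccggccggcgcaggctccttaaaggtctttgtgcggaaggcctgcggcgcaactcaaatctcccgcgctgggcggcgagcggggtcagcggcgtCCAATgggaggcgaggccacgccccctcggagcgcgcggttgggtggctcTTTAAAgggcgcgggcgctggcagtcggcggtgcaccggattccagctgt
Tk1: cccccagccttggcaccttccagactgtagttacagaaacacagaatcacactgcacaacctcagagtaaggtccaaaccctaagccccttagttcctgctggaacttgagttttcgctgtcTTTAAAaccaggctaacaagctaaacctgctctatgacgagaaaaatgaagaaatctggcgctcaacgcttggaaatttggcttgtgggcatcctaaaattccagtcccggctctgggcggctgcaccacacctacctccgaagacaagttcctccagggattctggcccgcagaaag
Nusap1: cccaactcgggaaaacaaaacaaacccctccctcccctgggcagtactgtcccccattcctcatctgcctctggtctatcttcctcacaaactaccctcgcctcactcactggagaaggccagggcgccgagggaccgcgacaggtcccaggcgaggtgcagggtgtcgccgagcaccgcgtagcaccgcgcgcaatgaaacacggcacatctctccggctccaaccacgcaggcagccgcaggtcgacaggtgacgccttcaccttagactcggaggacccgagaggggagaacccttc
Cep55: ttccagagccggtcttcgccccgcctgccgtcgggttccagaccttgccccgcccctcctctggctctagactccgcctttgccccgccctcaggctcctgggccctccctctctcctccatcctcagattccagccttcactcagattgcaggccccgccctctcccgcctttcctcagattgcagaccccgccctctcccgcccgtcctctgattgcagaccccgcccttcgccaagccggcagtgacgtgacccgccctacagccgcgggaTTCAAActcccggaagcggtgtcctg

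Rrm2 held a cell cycle homology match and an NF-Y box, Tk1 and Cep55 1 cell cycle homology match each, and Nusap1 none of the letters searched in this window, although its mRNA was among the most elevated in the members, as the values further on show.

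Across the series, the WT library held 10880 barcodes and 115519153 UMIs and the knockout library 10700 barcodes and 145331950 UMIs, with median totals of 8725.5 and 12921 UMIs per barcode. The tables list 10505 and 9664 genes, of which 9127 are in both, and every listed gene reached at least 4 UMIs in some cell. The 2 libraries shared 218 barcodes, of which 3 WT and 2 knockout cells were endothelial and none was a member. Members were deeper than their neighbours: the median total was 11238 UMIs in WT members (5627 to 33301) against 6123 in other endothelial cells, and 12298 (1984 to 35836) against 6834 in the knockout library. Mitochondrial UMIs did not separate the sets, with medians of 4.47% against 4.60% in WT and 4.32% against 4.25% in the knockout library.

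The 6 endothelial genes of the rule chose the cells, so their level is a description. They made up a median of 68.2 per 10000 UMIs in WT members (22.3 to 106) against 79.0 in other WT endothelial cells, and 50.3 (21.0 to 87.5) against 61.8 in the knockout library. A separate list of pan-endothelial genes such as Pecam1, Tie1 and Kdr summed to a median of 76.2 per 10000 UMIs in WT members (37.2 to 139) and 56.1 in knockout members (23.8 to 111), against 0.483 and 0.459 in keratin-positive cells of the same libraries, which carried Krt8 and Krt18 above the limit. Every member was above 0 for this list, and members with fewer endothelial UMIs and markers of other cells are described further on. Of the T, NK and B cell list only 1 of 12 genes was listed for both libraries, and of the neutrophil and platelet list 4 of 8. None of these was measurable, so the 2 lists cannot show whether such cells were absent. Members had no UMI of the macrophage genes Csf1r, C1qa, C1qb, C1qc and Lyz2, and none of Epcam, Cdh1, Krt14 or Krt19. The whole macrophage list still summed to 14.2 CPM in WT and 18.2 CPM in knockout members, and the keratin list to 14.2 and 173 CPM, the latter nearly all from Spp1. Haemoglobin and related red cell genes summed to 2.83 CPM in WT members against 592 CPM in other WT cells.

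Cycling cells were a larger share of the endothelial cells in the knockout library. They made up 4.98% of WT endothelial cells (27 of 542, exact 95% binomial interval 3.31% to 7.17%) and 18.9% of knockout endothelial cells (57 of 302, 14.6% to 23.8%). The intervals, like all others here, cover counting error only and leave out the spread between mice and libraries. With each cell thinned to 3000 UMIs and a threshold of 2, the shares were 4.56% of 504 cells in WT (2.91% to 6.77%) and 18.4% of 277 in the knockout library (14.03% to 23.5%), after 38 and 25 shallower cells were left out. Within bands of depth the order was the same: no WT cell of 170 and 3 of 71 knockout cells below 5000 UMIs, 3.73% of 268 against 11.7% of 145 from 5000 to 10000 UMIs, and 16.3% of 104 against 43.0% of 86 above 10000 UMIs. A count of 0 among 170 cells gives an upper exact limit of 2.15%. In other cells of the same tumours, the share past the same threshold was 12.5% in WT and 18.6% in knockout keratin-positive cells, and 3.09% and 8.49% in cells over the collagen limit. After thinning, these were 9.45%, 12.3%, 2.61% and 5%. All 3 cell groups had the higher share in the knockout library, although the thinned intervals of the collagen group overlapped (2.03% to 3.30% against 1.64% to 11.3%).

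Expression was then compared as CPM, the UMIs of a gene per 1000000 UMIs of all cells in a set, with an exact 95% interval for each ratio. A gene was measured with at least 20 UMIs over the 2 sets, and was called where it was at least 1.5-fold different and its interval left out equality. Between cycling and other WT endothelial cells, 810 of 8002 genes were higher (10.1%) and 586 were lower (7.32%). In the knockout library 656 of 7503 were higher (8.74%) and 562 lower (7.49%). Of 7447 genes measured in both, 364 were higher in both, which is 48.6% of the WT calls and 58.5% of the knockout calls, and 148 were lower in both (26.4% and 26.6%). The cells were chosen by cycle genes, so these counts describe the chosen cells and are not a test.

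**Figure D2:**
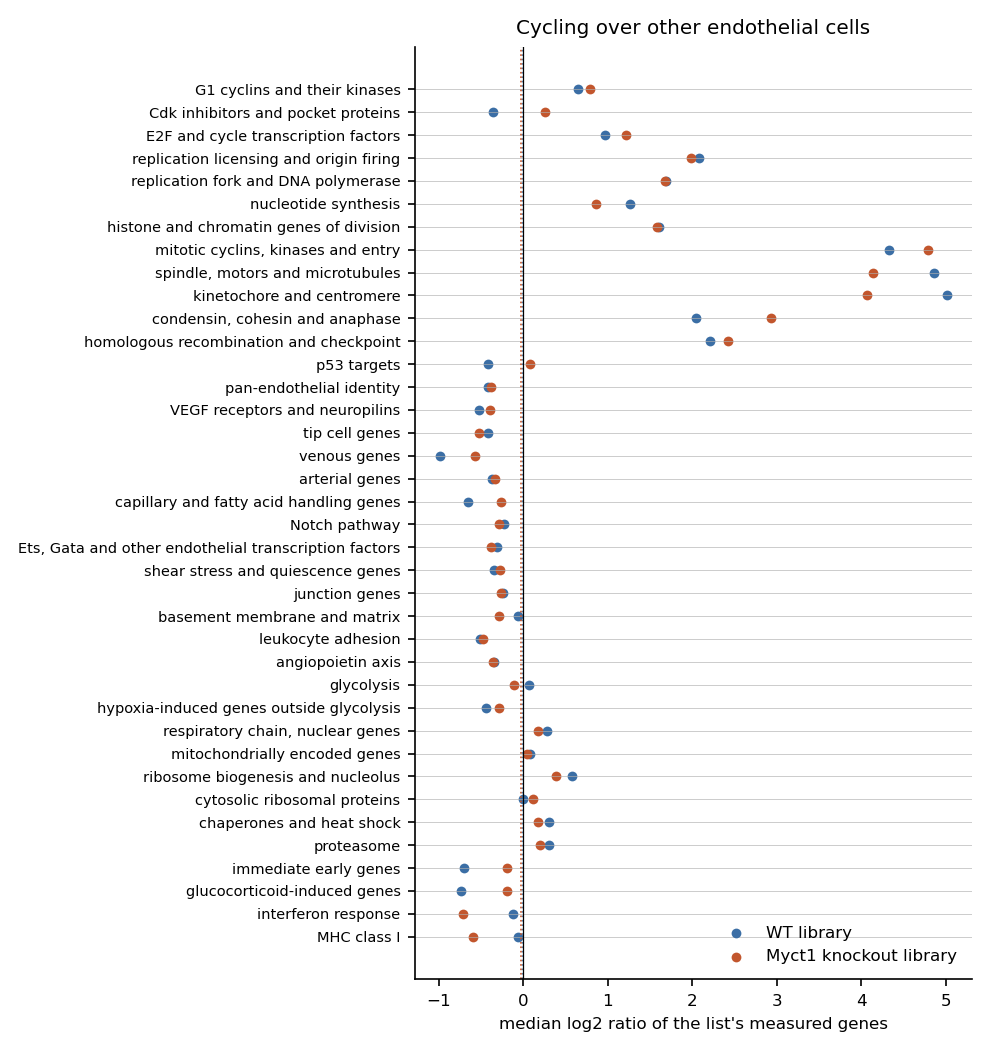
Median log2 ratio of cycling over other endothelial cells for each gene list (vertical axis) in the WT and knockout libraries (points; horizontal axis in log2 units, 0 means equal). The mitotic, spindle and kinetochore lists reach medians of 4.06 to 5.01, licensing and fork lists lie at 1.68 to 2.07, and the pan-endothelial and venous lists lie at -0.38 to -0.98.

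The plot of list medians sets out the order described next, from G1 to mitosis; genes with no UMI in a set enter medians at a bound of 3 counts. The median of all measured genes was -0.01 in WT and -0.03 in the knockout library.

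Of the G1 cyclins and their kinases, 4 of 7 measured genes were higher in each library, with median log2 ratios of 0.65 and 0.79. Ccne2, an E cyclin that opens S phase, stood at 34.0 CPM in WT members against 2.21 CPM in other WT cells, and at 24.7 against 1.06 CPM in the knockout library. Cdk4, the kinase partner of D cyclins, was 190 against 121 CPM in WT and 246 against 142 CPM in the knockout library, a log2 ratio of 0.65 and 0.79. Ccnd1, the D cyclin that growth factors induce, was 363 against 244 CPM and 220 against 167 CPM, and was not called in either library (0.57 and 0.40). Ccnd2 was called in WT (1.48) and not in the knockout library (1.45), where members had 13.0 CPM and cells over the collagen limit more than 3 times as much. Ccnd3 and Cdk6 were not called in either.

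Inhibitors of these kinases moved both ways. Cdkn2c (p18) and Cdkn2d (p19), which block Cdk4 and Cdk6, and Rbl1 (p107), a retinoblastoma relative, were higher in both libraries: Cdkn2c at 65.2 against 10.5 CPM in WT and 43.0 against 11.1 CPM in the knockout library, Cdkn2d at 62.3 against 14.1 and 96.4 against 24.4 CPM. Cdkn1a (p21), the inhibitor that p53 induces, was lower in WT members, 181 against 282 CPM (log2 ratio -0.64, interval -1.02 to -0.27), and was 271 against 284 CPM in the knockout library (-0.07, -0.31 to 0.17). Btg1, an antiproliferative gene, was 405 against 559 CPM in WT, not called, and 340 against 531 CPM in the knockout library, called (-0.64). Cdkn1b, Cdkn1c, Btg2 and Ccng1 were called in neither library. Of p53 target genes, 2 were higher and 3 lower of 18 in WT, and 0 higher and 2 lower of 15 in the knockout library.

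Cycle transcription factors were higher for 4 of 9 genes in WT and 5 of 8 in the knockout library. Foxm1, which drives mitotic genes, reached 128 CPM in WT members against 3.31 CPM in the other cells, a 38.5-fold difference (log2 5.27, interval 4.32 to 6.32). In the knockout library it was 40.4 against 1.06 CPM (5.25, 3.28 to 8.36). The estimates of the ratio were close, but the knockout interval is too wide to show that the ratios were equal. The level in members was 3.16-fold lower in the knockout library (log2 -1.66, -2.37 to -0.97). E2f1, the founding E2F, was 39.7 against 8.83 CPM and 37.8 against 9.02 CPM.

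Replication genes were raised as a group. Of the licensing and origin genes, 13 of 14 measured in WT and 14 of 15 in the knockout library were higher, with medians of 2.07 and 1.98. Mcm5, a helicase subunit, was 125 against 11.6 CPM in WT (log2 3.43, 2.78 to 4.07) and 59.9 against 16.4 CPM in the knockout library (1.86, 1.18 to 2.57). Mcm7, another subunit, was 105 against 22.3 CPM and 107 against 18.6 CPM. Of fork and polymerase genes 21 of 26 and 22 of 28 were higher (medians 1.69 and 1.68), among them Pcna, the sliding clamp, at 159 against 54.3 CPM and 105 against 35.5 CPM. Of nucleotide synthesis genes 12 of 22 and 12 of 21 were higher. Rrm2, the small subunit of ribonucleotide reductase whose promoter is printed above, was 119 against 3.03 CPM in WT and 100 against 3.18 CPM in the knockout library, 39.2-fold and 31.5-fold. Tk1, thymidine kinase, was 79.3 against 2.21 CPM and 95.05 against 3.71 CPM.

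Histone and chromatin genes of division were higher in 27 of 28 and 25 of 29. Hmgb2, a DNA-bending chromatin protein, was 12.1-fold higher in WT members (1040.03 against 86.1 CPM) and 10.1-fold higher in knockout members (1105 against 110 CPM), with narrow intervals of 3.37 to 3.82 and 3.11 to 3.56 on the log2 scale. H2afz, a histone variant, was 2029 against 485 CPM and 2956 against 901 CPM. Hist1h2ap, a replication-dependent H2A gene, was 249 against 0.828 CPM and 318 against 7.43 CPM. Histone gene copies are near-identical in sequence, so the reads of Hist1h2ap are uncertain.

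Mitotic cyclins, kinases and entry genes were higher in 17 of 18 and 15 of 16 (medians 4.33 and 4.80), spindle and motor genes in 31 of 32 and 29 of 32 (4.86 and 4.14), kinetochore and centromere genes in 21 of 21 and 23 of 23 (5.01 and 4.06), and condensin, cohesin and anaphase genes in 16 of 17 and 17 of 19 (2.04 and 2.93). Nusap1, which bundles spindle microtubules, was 162 CPM in WT members against 1.93 CPM in the other cells (log2 6.39, 5.25 to 7.76) and 197 against 1.06 CPM in the knockout library (7.53, 5.66 to 10.59). Ccnb1, the cyclin that activates Cdk1, was 139 against 1.38 CPM and 158 against 3.71 CPM, with 30.6% of its knockout UMIs in 1 cell. Ccna2, the cyclin of S phase and G2, was 232 against 2.76 CPM and 134 against 4.24 CPM. Prc1, which builds the central spindle, was 176 against 0.828 CPM and 141 against 4.77 CPM. Tpx2, the activator of Aurora A, was 258 against 4.41 CPM in WT and 154 against 6.37 CPM in the knockout library. Cenpf and Cdca8, of the kinetochore and the chromosomal passenger complex, were 145 against 3.59 and 153 against 2.76 CPM in WT, and 135 against 4.77 and 169 against 4.24 CPM in the knockout library. Cenpa, the centromeric histone, was 224 against 6.34 CPM and 284 against 22.3 CPM. Smc2, a condensin subunit used in interphase too, showed a smaller ratio, 159 against 25.7 CPM and 228 against 21.7 CPM. In each of these genes both libraries had members far above the other cells.

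Members divided unevenly between S phase and mitosis when their UMIs for a list of 57 S phase genes were set against those for a list of 96 G2 and mitosis genes. Of these, 53 and 90 are listed for both libraries, and each library counted every gene listed for it. The G2 and mitosis genes led in 21 of 27 WT members (77.8%, interval 57.7% to 91.4%) and 48 of 57 knockout members (84.2%, 72.1% to 92.5%), the S phase genes in 6 and 8, and 1 knockout cell had equal counts. The rule genes are known mainly from G2 and mitosis, and members led by S phase genes had a median of 4.5 rule gene UMIs in WT and 12.5 in the knockout library, against 24 and 24.5 in the rest. Near the border, within a factor of 2, were 7 WT and 23 knockout members, so the phases form a range. Asking for 2 times as many G2 and mitosis UMIs gave 63.0% in WT and 57.9% in the knockout library, which turns the order of the libraries.

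**Figure D3:**
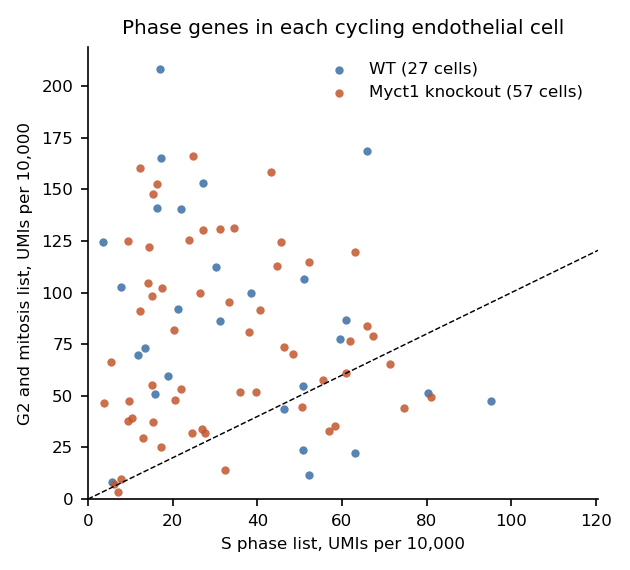
UMIs of S phase genes per 10000 (horizontal axis) against UMIs of G2 and mitosis genes per 10000 (vertical axis) in each cycling endothelial cell of the WT and knockout libraries; each point is 1 cell and the line marks equal values. Of the members, 21 of 27 WT cells and 48 of 57 knockout cells lie on the G2 and mitosis side, and the cells spread without a gap across the line.

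In the plot of phase genes by member the cells form 1 continuous spread. Summed over cells, the S phase genes took 34.3 per 10000 UMIs in WT members against 8.42 in other cells and 30.3 against 8.85 in the knockout library, and the G2 and mitosis genes 84.4 against 7.88 and 70.5 against 8.47. Members led by S phase genes carried 2230 CPM of licensing genes in WT against 800 CPM in members led by mitotic genes, and 1432 against 680 CPM in the knockout library; these genes also set the classes. G1 cyclins and their kinases, which did not set them, summed to 901 against 759 CPM in WT and 970 against 566 CPM in the knockout library. The classes also differed in markers of other cells. In the knockout library mural genes summed to 901 against 284 CPM and fibroblast genes to 841 against 77.4 CPM. In WT the order was reversed, with 45.8 against 1486 CPM and 229 against 1002 CPM. The part of such cells in the phase sums was not tested.

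Endothelial genes were still expressed, and a few were lower than in the other cells. None of the 6 rule endothelial genes was called in either library. Of 21 pan-endothelial genes, 5 were lower and none higher in WT members (median -0.42), and 4 lower and none higher in knockout members (-0.38). Cldn5, the tight junction claudin of endothelium, was 351 against 832 CPM in WT (log2 -1.24, -1.51 to -0.98) and 303 against 739 CPM in the knockout library (-1.29, -1.49 to -1.08). Pecam1, the adhesion molecule of endothelial contacts, was 1117 against 1469 CPM in WT, not called, and 721 against 1096 CPM in the knockout library, called (-0.60).

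Tip cell genes were lower for 9 of 22 in WT and 8 of 22 in the knockout library (medians -0.42 and -0.52), with 1 and 0 higher. Igfbp3, a growth factor binding protein that is abundant in tumour endothelium, was 2327 against 4880 CPM in WT and 2184 against 5237 CPM in the knockout library, 2.098-fold and 2.40-fold lower. Pgf, placental growth factor, was 39.7 against 129 CPM and 91.1 against 414 CPM. Dll4, the Notch ligand of tip and arterial cells, was 198 against 324 CPM (log2 -0.71) and 167 against 250 CPM (-0.59). Cxcr4, the chemokine receptor of tip cells, was 82.2 against 254 CPM (-1.63) and 118 against 180 CPM (-0.61). Apln, the tip cell peptide apelin, went the other way in WT, 459 against 297 CPM (0.63, called), and stood at 271 against 385 CPM in the knockout library (-0.51, not called). The list therefore did not shift as a block.

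Among genes of vessel beds, venous genes were lower in 7 of 12 WT and 4 of 10 knockout comparisons, arterial genes in 4 of 13 and 3 of 12, and capillary and fatty acid genes in 7 of 14 and 4 of 13. Lrg1, a secreted glycoprotein of venous and inflamed endothelium, was 428 against 1124 CPM in WT (-1.39, called) and 310 against 451 CPM in the knockout library (-0.54, not called). Vwf, the clotting factor stored in endothelial granules, was 400 against 899 CPM (-1.17, called) and 281 against 421 CPM (-0.58, not called). Gpihbp1, which holds lipoprotein lipase on capillaries, was 873 against 1687 CPM and 1128 against 2234 CPM, lower in both. Bmp2, a bone morphogenetic protein, was 45.3 against 148 CPM and 57.3 against 242 CPM, and Timp3, a metalloproteinase inhibitor, 230 against 850 CPM and 129 against 274 CPM. For Timp3, knockout cells over the collagen limit had more than 3 times the level of knockout members. The lymphatic list was lower for 3 of 7 and 3 of 5 genes: Ccl21a was 48.2 against 205 CPM in WT, where 1 member held all UMIs, and 0 against 244 CPM in the knockout library. In WT neither value was stable. Ccl21a had a log2 ratio of 0.076 against other cells at or above the lower quartile of the members' UMIs. The list median of -0.61 became 0.19 with members chosen on thinned cells.

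VEGF receptors were called rarely in this contrast: 1 of 5 was lower in WT (Flt4, log2 -0.61) and 1 of 5 in the knockout library (Flt1, -0.76). Summed per cell, the 5 genes had a median of 18.2 per 10000 UMIs in WT members (1.70 to 55.5) against 26.9 in other cells, and 10.8 (1.93 to 28.6) against 13.8 in the knockout library. The ranges of members and other cells overlapped in both.

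Immediate early genes differed between the libraries in how many were called. In WT members 12 of 18 were lower and none higher (median -0.70), and in knockout members 3 of 19 were lower and 1 higher (-0.20); the difference between the libraries was not tested. Junb, an AP-1 subunit, was 674 against 1347 CPM in WT (log2 -0.998, -1.19 to -0.81) and 777 against 1038 CPM in the knockout library (-0.42, -0.55 to -0.28, not called). Klf4, a factor of quiescent and sheared endothelium, was 193 against 443 CPM in WT and 217 against 223 CPM in the knockout library. Zfp36, which degrades inflammatory mRNAs, was lower in both, 354 against 723 CPM and 194 against 355 CPM. Cells over the collagen limit in the same library held more than 3 times the members' level of Junb in WT and of Klf4 and Zfp36 in both. Glucocorticoid-induced genes showed the same split, 5 of 9 lower in WT and 0 of 9 called in the knockout library. Many genes of both lists were more than 3 times as high in keratin-positive cells or cells over the collagen limit as in members. In WT these were 10 of 18 immediate early and 4 of 9 glucocorticoid-induced genes, and in the knockout library 6 of 19 and 4 of 9.

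Interferon genes showed the reverse split. In knockout members 15 of 29 were lower and 1 higher than in other knockout endothelial cells (median -0.72), whereas in WT 2 were lower and 2 higher of 27 (-0.13). Irf7, the factor that amplifies the interferon response, was 18.2 against 53.04 CPM in the knockout library (log2 -1.54, -2.46 to -0.73) and 25.5 against 14.3 CPM in WT, not called. Rtp4, an interferon-induced membrane protein gene, was 32.6 against 75.9 CPM in the knockout library (-1.22) and 19.8 against 15.2 CPM in WT. Bst2 (tetherin) was lower in knockout members, 374 against 588 CPM, and higher in WT members, 445 against 252 CPM. For these 3 genes the highest of the 4 sets was the other knockout endothelial cells, and members of the 2 libraries lay closer to each other. Per cell, the interferon genes summed to a median of 9.03 per 10000 UMIs in knockout members (1.57 to 125) against 15.2 (0 to 294) in other knockout cells, and to 11.001 (2.54 to 54.1) against 7.62 (0 to 136) in WT. The interferon sum was 1125 CPM in the 48 knockout members led by G2 and mitosis genes, against 2285 CPM in other knockout cells. In the 8 knockout members led by S phase genes it was 2363 CPM, and the split by phase was not tested. Those 8 members also carried the higher mural and fibroblast sums given above. Cxcl9, a chemokine of interferon gamma, was lower in both libraries (28.6 against 196 CPM in the knockout library and 14.2 against 60.7 CPM in WT), but 77.3% of the knockout members' UMIs came from 1 cell and in WT the cells over the collagen limit had more than 3 times the members' level.

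MHC class I genes followed the interferon genes in the knockout library, with 6 of 13 lower and none higher, against 1 of 13 lower in WT. B2m, the light chain of all class I molecules, was 1158 against 1747 CPM in the knockout library (log2 -0.59, -0.70 to -0.49) and 1672 against 1755 CPM in WT (-0.07, -0.19 to 0.05). H2-K1 and H2-D1, heavy chains, were 756 against 1221 CPM and 845 against 1339 CPM in the knockout library, and 1193 against 1196 CPM and 975 against 1022 CPM in WT. In the knockout library the intervals of all 3 left out equality, while in WT they included it.

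Nuclear respiratory chain genes had 1 higher of 29 in WT and none called in the knockout library, none of the 13 mitochondrially encoded genes and none of the 26 cytosolic ribosomal protein genes was called in either library, and glycolysis had 1 higher and 1 lower of 16 in WT and 1 higher and 2 lower in the knockout library. Genes of ribosome biogenesis were higher in 9 of 24 WT and 5 of 24 knockout comparisons, for example Nop58, a box C/D snoRNP core protein gene, at 136 against 69.5 CPM and 150 against 73.2 CPM. Hypoxia-induced genes outside glycolysis were lower in 7 of 16 WT comparisons, and in 4 of 17 in the knockout library with 1 higher.

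Markers of other cell types were present in some members. Mural genes were higher in 8 of 10 WT comparisons and 5 of 7 in the knockout library, with 2 lower, and fibroblast genes in 5 of 10, with 1 lower, and 3 of 6, with 1 lower. Rgs5, a pericyte gene, was 397 against 47.4 CPM in WT, with 92.1% of its UMIs in 1 cell. These signals sat in few cells: 3 WT and 10 knockout members had fewer than 40 endothelial rule UMIs per 10000, and among them the summed mural genes reached 1.89, 62.2 and 150 per 10000 in the WT cells and up to 51.0 in the knockout cells. In the 24 WT members at or above 40 per 10000 the mural sum had a median of 0.274 and a highest value of 2.23, and the fibroblast sum a highest value of 5.33. With both sets held to at least 40 per 10000 (24 WT and 47 knockout members), mural genes turned to 5 lower and none higher of 8 in WT and 4 lower and none higher of 5 in the knockout library. Under this gate licensing genes were higher in 11 of 13 and 13 of 14 and kinetochore genes in 20 of 20 and 22 of 22, while in WT G1 cyclins and their kinases had 3 of 6 higher (median 0.28) and cycle transcription factors 3 of 8. Interferon genes were lower in 17 of 28 knockout comparisons, and immediate early genes in 15 of 18 WT and 5 of 18 knockout comparisons.

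**Figure D4:**
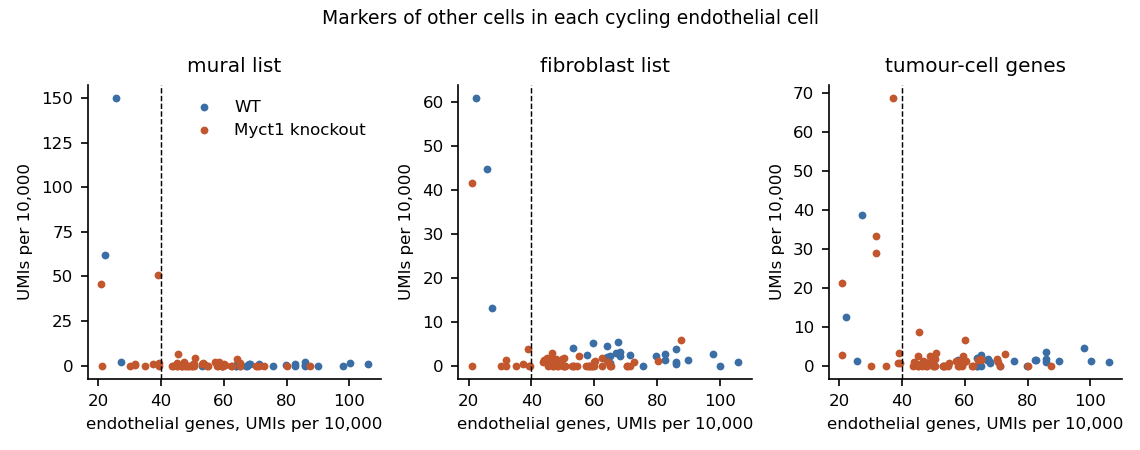
Summed markers of mural, fibroblast and tumour cells per 10000 UMIs (vertical axes) against endothelial rule UMIs per 10000 (horizontal axis) for each cycling endothelial cell of both libraries; the dashed line marks 40 per 10000. The cells with high mural or fibroblast sums lie left of the line, where 3 WT and 10 knockout members are.

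The plot of other markers shows that members right of the line were near 0 for mural and fibroblast genes. Genes of tumour cells were detected too. These were chosen per library as at least 20-fold higher in keratin-positive cells than in the other endothelial cells, 29 genes in WT and 23 in the knockout library. In knockout members they summed to 10.1% of their level in keratin-positive cells, against 3.75% in other knockout endothelial cells. In WT the shares were 2.76% and 2.94%. The choice itself held the share of the other cells low and left that of members free, so the gap between them is no test. The knockout signal of these genes too sat in few cells. The 47 knockout members at or above 40 endothelial UMIs per 10000 had a median of 0.58 per 10000 and a highest value of 8.69. The 10 knockout members below reached 68.7. Doublet scoring did not work in the knockout library, where 0.286% of kept barcodes scored above 0.3, so its scores cannot tell doublets there. No member had a doublet score above 0.3, and the highest scores were 0.268 in WT and 0.250 in the knockout library, both in cells left of the line. Whether these cells are doublets was not tested. Spp1, osteopontin, was the 1 keratin-list gene measured in both sets of the knockout library. It was 172 CPM in knockout members against 101 CPM in other knockout cells. In knockout keratin-positive cells it was 1914 CPM and in knockout cells over the collagen limit 4878 CPM, so it is not particular to tumour cells. The keratin-list signal was not confined to cells left of the line. Its highest value was 49.96 per 10000 in the 47 knockout members right of it, of which 34 had none. Left of the line the highest value was 10.7. The member at 49.96 held no UMI of the tumour-cell genes chosen above. With both knockout sets held to at least 40 endothelial UMIs per 10000, Spp1 was still higher in members (log2 0.89).

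Between genotypes, the targeted gene was read first. Myct1, a membrane protein gene of endothelium, was at 238 CPM in WT members (exact 95% interval 190 to 294), with UMIs in 21 of 27 cells and at least 4 UMIs in 12. In other WT endothelial cells it was also at 238 CPM (222 to 254), and in WT keratin-positive cells at 0.522 CPM. The intervals of cycling and other WT endothelial cells overlapped. The knockout table has no row for Myct1, so its level there is not analysed here, and every listed gene reached at least 4 UMIs in some cell.

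Within cycling cells, 349 of 6209 measured genes were higher in the knockout library (5.62%) and 1372 lower (22.1%), and the median gene had a log2 ratio of -0.31. In other endothelial cells the knockout library was higher for 634 of 8042 (7.88%) and lower for 2663 (33.1%); the median gene stood at -0.37. The same shift thus ran through both sets, and after centring on the median the split among cycling cells was 905 higher and 637 lower (961 and 593 with TMM scaling). For the lists within cycling cells, counts from CPM are followed by counts after centring. Values of the other endothelial cells stand beside them from the same pair of libraries, so they are no separate evidence on genotype.

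**Figure D5:**
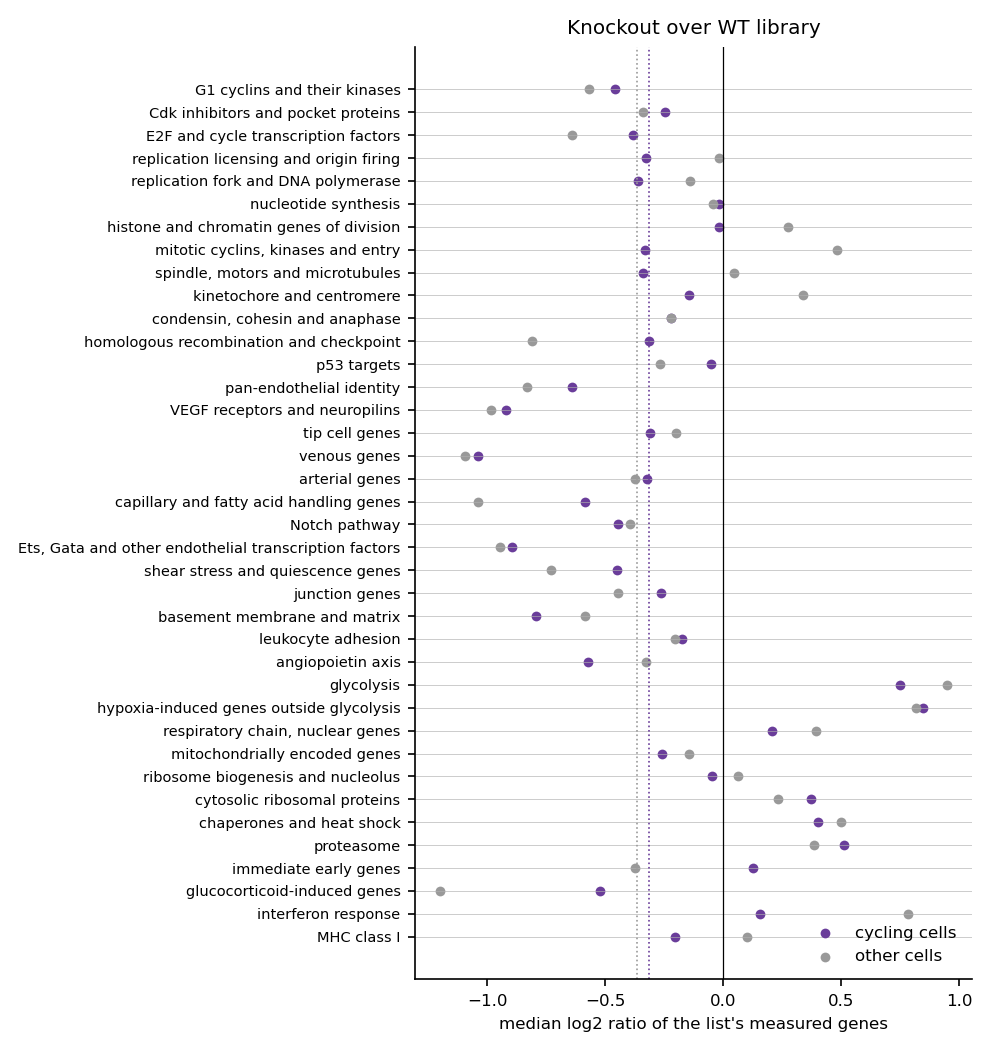
Median log2 ratio of knockout over WT for each gene list (vertical axis) within cycling and within other endothelial cells (points; horizontal axis in log2 units); the lines mark the medians of all measured genes, -0.31 and -0.37. Glycolysis and hypoxia lists lie at 0.75 to 0.95 in both sets, VEGF receptors and Ets factors at -0.90 to -0.99, and the interferon list at 0.16 in cycling and 0.79 in other cells.

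In the plot of list medians by genotype most lists lay at similar places in cycling and other cells. VEGF receptors and neuropilins were lower in 5 of 5 genes in cycling cells (median -0.92) and in 2 of 5 after centring (1 of 5 with TMM scaling), and in 4 of 5 in other cells (-0.99). Kdr, the main VEGF receptor, was 220 CPM in knockout members against 417 CPM in WT members (log2 -0.92, -1.25 to -0.59), and 251 against 602 CPM in other cells (-1.26). Nrp1, the neuropilin co-receptor, was 245 against 493 CPM in members (-1.01, -1.32 to -0.70) and 309 against 638 CPM in other cells (-1.04). Flt1, the decoy receptor, was 533 against 964 CPM in members (-0.86) and Flt4, the VEGF-C receptor, 76.8 against 119 CPM (-0.63). Nrp2 was 62.5 against 119 CPM. All 5 were lower than the median gene in cycling cells.

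Ets, Gata and other endothelial transcription factors were lower in 10 of 17 genes in cycling cells (median -0.90) and in 5 after centring, with none higher, and in 15 of 20 in other cells (-0.95). Ets1, the founding Ets factor, was 268 against 575 CPM in members (log2 -1.10, -1.39 to -0.81) and 343 against 738 CPM in other cells. Epas1 (HIF-2 alpha) was 195 against 434 CPM in members (-1.15) and Mef2c, a MADS-box factor, 72.9 against 170 CPM (-1.22). Pan-endothelial genes were lower in 11 of 21 in cycling cells and in 6, with 1 higher, after centring, against 15 of 21 lower and 1 higher in other cells. Basement membrane genes were lower in 12 of 19, and in 8 with 1 higher after centring; Col18a1, the source of endostatin, was 355 against 802 CPM in members (-1.17) and 433 against 545 CPM in other cells (-0.33).

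Glycolysis genes were higher in 9 of 16 and lower in 1 in knockout members (median 0.75), and higher in 11 with none lower after centring; in other cells 10 of 17 were higher and 1 lower (0.95). Ldha, which makes lactate, was 904 against 394 CPM in members (log2 1.20, 0.93 to 1.47) and 788 against 337 CPM in other cells (1.23). Gapdh was 2906 against 1369 CPM in members (1.09, 0.94 to 1.23). Hypoxia-induced genes outside glycolysis were higher in 7 of 16, and 10 after centring, with none lower, and in 10 of 17 in other cells. Adm, the vasodilator adrenomedullin, was 198 against 79.3 CPM in members (1.32), although WT cells over the collagen limit held more than 3 times the WT members' level. Leaving out every gene that was more than 3 times as high in keratin-positive cells or cells over the collagen limit of either library left 5 of 11 glycolysis genes and 1 of 5 hypoxia genes higher. Proteasome genes were higher in 10 of 22 and chaperones in 7 of 21, with none lower, and in 15 and 13 after centring.

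Among single genes, Hspb1 (the small heat shock protein Hsp27) was 458 CPM in knockout members against 108 CPM in WT members, 4.26-fold (log2 2.09, 1.60 to 2.61), though WT keratin-positive cells held more than 3 times the WT members' level. Kcne3, a potassium channel subunit counted among tip cell genes, was 126 against 22.7 CPM (2.48, 1.44 to 3.73). Its WT value rests on 8 UMIs in 3 members, 75% of them in 1 cell. Snrpa1, a spliceosome subunit, was 160 against 39.7 CPM, and Exosc8, an exosome subunit, 107 against 28.3 CPM. Ubb, a ubiquitin gene, and Fth1, ferritin heavy chain, were 2935 against 1391 CPM and 2177 against 1009 CPM; Fth1 too was more than 3 times as high in WT keratin-positive cells as in WT members. Gal, the neuropeptide galanin, was 186 against 2.83 CPM, with 53.8% of knockout UMIs in 1 cell. Cd36, a fatty acid transporter, was lower, 71.6 against 340 CPM (-2.25, -2.74 to -1.78), and Yam1, a noncoding RNA, 569 against 2256 CPM (-1.99, -2.16 to -1.82). Both remained lower with members held to 40 endothelial UMIs per 10000 (-2.13 and -2.16). Col1a1, Rgs5 and Mgp were lower too, but 79.1% of the Col1a1 UMIs and 92.1% of the Rgs5 UMIs of WT members were in 1 cell, and all 3 genes had under 20 UMIs once members were held to that minimum. The other endothelial cells differed in the same directions. There Hspb1, Kcne3, Snrpa1, Exosc8, Ubb and Gal were higher in the knockout library (log2 1.25, 1.07, 1.14, 0.65, 1.26 and 1.06). Fth1 was not called (0.55). Cd36 was 85.9 against 522 CPM and Yam1 933 against 3463 CPM. Yam1 was 491 against 1918 CPM in keratin-positive cells and 997 against 3838 CPM in cells over the collagen limit. Ubb was 2365 against 1252 CPM and 2327 against 1081 CPM in these.

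Cycle genes differed less between the genotypes, with a sign that hung on scaling and counts that changed with the minimum of endothelial UMIs. Spindle genes were higher in 1 and lower in 11 of 32 in knockout members, and higher in 4 and lower in 5 after centring. Mitotic cyclins and kinases had 1 higher and 6 lower of 20, and 1 and 1 after centring, and the kinetochore list had a median of -0.14, which became 0.17 after centring. Foxm1 was lower beyond the overall shift, while Tyms, thymidylate synthase, was higher (242 against 128 CPM, log2 0.93, 0.45 to 1.43). Interferon genes were higher in 4 and lower in 2 of 23 in knockout members (median 0.16), against 18 higher and none lower of 30 in other cells (0.79), and the difference between the sets was not tested. After centring, 4 were higher and none lower in members, and without genes over the limit of 3 times the members' level in other gates, 2 were higher and 2 lower of 18 (median -0.062).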

How the data were processed

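Single-cell UMI counts were measured in 2 libraries, 1 WT and 1 Myct1 knockout, grouped by the labels' genotype. The authors deposited 1 table of raw counts per library; Cell Ranger 2.1.1 and mm10 are named per the submitters' processing notes, and the sources used here name no filter. Every listed gene reaches at least 4 UMIs in some cell, so weak genes cannot be seen. The total row and sum column were dropped, and 0 columns of per-sample values were left unused. Symbols listed more than once were summed. The members and gene lists were chosen with earlier results of these data known, and 48 lists were used.

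The Krt8 and Krt18 limit was read as per 10000 UMIs. Counts were summed over the cells of a set and scaled to CPM over genes of both tables. Ratios have exact conditional binomial intervals, levels exact Poisson and shares Clopper-Pearson intervals, all at 95%, and UMIs are counted molecules, so these cover counting error only. Depth is given with each set. Named genes were the 15 per direction with the interval bound farthest from 0 in both libraries at 100 CPM or more, the 12 per direction between genotypes, up to 4 per list, and all G1 cyclins, Cdk inhibitors and VEGF receptors; further genes in the text come from the lists. Doublets were kept; Scrublet (in scanpy 1.11.5) scored 1.69% of kept WT barcodes above 0.3 and 0.286% of knockout barcodes, so it did not work in the latter, and leaving out the top 5% of scores was added. Alternatives covered thresholds, gates, scaling, depth and doublets. Scripts were tested on simulated data. Work ran in Python 3.11.15 with scipy 1.17.1, numpy 2.4.6, matplotlib 3.10.9 and pandas 2.3.3. Promoter sequences came from RefSeq. Genes listed in 1 table only entered no ratio.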

Additional observations from a re-analysis of the deposited data

Results flagged for a closer look

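Some named genes were called in opposite directions in the 2 libraries when cycling endothelial cells were set against other endothelial cells of the same library. Each genotype has 1 library, and the difference between the libraries was not tested. Higher in WT members and lower in knockout members were Bst2, an interferon-induced gene (log2 ratio 0.82 in WT and -0.65 in the knockout library), Car4, a capillary carbonic anhydrase (0.76 and -0.92), Chga, a granin (1.98 and -1.75), Gadd45g, a stress gene (1.47 and -1.28), Il6, a cytokine (1.12 and -1.25), and Lrat, a retinol esterase (0.64 and -1.24).

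Lower in WT members and higher in knockout members were Gsn, an actin-severing protein gene (-0.85 and 1.17), Hmga2, a chromatin gene (-2.64 and 1.56), Rbp7, a retinol-binding protein gene of capillaries (-1.19 and 1.62), Spp1, osteopontin (-2.59 and 0.77), and Ucp2, a mitochondrial carrier gene (-1.35 and 1.72). Sox9, a transcription factor gene, had no UMI in WT members, which stands as a bound of -1.18 at 3 counts, and was at 2.40 in the knockout library, where 66.7% of its UMIs were in 1 cell. Keratin-positive cells held more of Sox9, Hmga2 and Spp1 than members did in either library. Cells over the collagen limit held still more Spp1, 1482 CPM in WT and 4878 CPM in the knockout library. The part of these cells in the ratios was not tested.

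Some genes had a row in the table of 1 library only, so they enter no ratio between genotypes, and they were higher in cycling than in other endothelial cells of that library. In the WT table these included Rttn at 28.0 CPM in members, Enkd1 at 28.0 CPM and Slc25a10 at 39.2 CPM. In the knockout table they included Wdr76 at 18.2 CPM, Chac2 at 20.8 CPM and Dusp19 at 29.8 CPM. The WT table alone lists 1376 genes, of which 626 were measured, 25 higher and 59 lower in members, and the knockout table alone lists 536, of which 187 were measured, 8 higher and 13 lower.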

How the results depend on the processing

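No paired analysis was possible because each genotype has 1 library. Under the alternative cell rules and filters, the cycling share lay between 3.69% and 5.54% in WT and between 15.9% and 20.5% in the knockout library. It fell outside these ranges on cells thinned to 3000 UMIs with the threshold kept at 4 (2.98% and 11.9%) and in single bands of depth (up to 16.3% in WT, and 4.23% to 43.0% in the knockout library). Calls at 2-fold gave 503 higher and 331 lower genes in WT members, 420 and 253 in knockout members, and 136 and 834 between genotypes. Between genotypes, centring gave 905 higher and 637 lower, TMM scaling 961 and 593, and a minimum of 50 UMIs 896 lower. The knockout share led by G2 and mitosis genes was 57.9% at the stricter border. Signs reversed for Ccl21a (0.076) and Nts (0.37) in WT against other cells at or above the lower quartile of the members' UMIs. They also reversed for mural genes in WT (-1.10) and the knockout library (-1.26) at 40 endothelial UMIs per 10000. Fibroblast genes in the knockout library reversed at that minimum (-2.81) and at 5% mitochondrial UMIs (-1.17). Lymphatic genes in WT reversed with thinned members (0.19). The causes were not tested. Of the values for single genes, 1464 kept their call and 19 lost it, and of list medians 2083 moved by no more than the typical error margin of their single genes and 53 by more. Medians near 0 between genotypes also turned sign on centring, among them from -0.14 to 0.17 for kinetochore, -0.02 to 0.30 for histone and -0.22 to 0.10 for condensin genes, and the interferon median turned from 0.16 to -0.062 without genes more than 3 times as high in keratin-positive cells or cells over the collagen limit. Members number 27 and 57, so rare transcripts and the spread between mice were not resolved.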
